A study of Mus musculus with 32 samples.

Results

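Gene expression was compared between liver tumours from mice given DC-101, an antibody that blocks mouse VEGFR2, and tumours from mice given vehicle. The libraries were chosen by their labels as the 3 DC-101 libraries and the 4 vehicle libraries of 1 experiment, 7 of the 32 libraries of the series. The tumours were made by injecting BNL-MEA, a murine liver cancer line, under the capsule of the left liver lobe of BALB/c mice, so that host vessels, blood cells and liver tissue are sequenced together with the cancer cells. DC-101 was injected into the abdomen at 800 µg on days 1, 3 and 5, and tumours were collected after 5 days of treatment. Low-dose regorafenib (5 mg/kg/day by mouth, n = 3), a kinase inhibitor with VEGF receptors among its targets, was given to a further group of the same experiment. The study asked with DC-101 whether the immune effects of low-dose regorafenib go beyond VEGFR2 blockade. The labels name no control antibody for DC-101, and what the vehicle of these mice contained is not in them. The labels mark the libraries as separate samples without naming the animals, so p-values measure the spread between these samples.

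VEGFR2 (gene Kdr) is the main signalling receptor for VEGF-A on endothelial cells, and its activation drives endothelial survival, division and the sprouting of new vessels. The cells at the front of a sprout, the tip cells, carry the Notch ligand Dll4 and secrete Esm1, Apln and Angpt2, and several of these genes are known to be turned on by VEGF. VEGFR1 (gene Flt1) binds VEGF-A tightly and mostly acts as a decoy, while Cdh5 (VE-cadherin), Pecam1 and Cldn5 hold endothelial cells together.

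The upstream sequences of both receptor genes and of Dll4 are given here because the results turn on the target of the antibody, its sister receptor and the tip cell ligand. Each is the 250 bases before the RefSeq start site on the gene's strand (build GRCm38.p6), with every GGAA or TTCC, the core recognised by ETS factors such as Erg, in capitals. Flt1 (minus strand, chr5:147726012-147726261) and Kdr (minus strand, chr5:75978456-75978705) each held 4 of these cores, which may overlap. Dll4 (plus strand, chr2:119325534-119325783) held 2. At least 4 cores were found in 33.4% of 32851 promoter windows of this length, at least 2 in 76.8% and at least 1 in 93.4%.
Flt1: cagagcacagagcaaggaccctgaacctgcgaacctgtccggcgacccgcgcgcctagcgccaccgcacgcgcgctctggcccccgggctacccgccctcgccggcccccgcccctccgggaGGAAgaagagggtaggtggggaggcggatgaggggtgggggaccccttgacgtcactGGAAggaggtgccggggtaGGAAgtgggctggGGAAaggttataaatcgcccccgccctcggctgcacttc
Kdr: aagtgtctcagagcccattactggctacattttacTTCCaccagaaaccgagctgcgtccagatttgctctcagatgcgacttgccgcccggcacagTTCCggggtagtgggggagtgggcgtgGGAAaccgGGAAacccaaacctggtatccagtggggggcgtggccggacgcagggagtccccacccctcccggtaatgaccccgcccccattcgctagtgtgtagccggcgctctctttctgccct
Dll4: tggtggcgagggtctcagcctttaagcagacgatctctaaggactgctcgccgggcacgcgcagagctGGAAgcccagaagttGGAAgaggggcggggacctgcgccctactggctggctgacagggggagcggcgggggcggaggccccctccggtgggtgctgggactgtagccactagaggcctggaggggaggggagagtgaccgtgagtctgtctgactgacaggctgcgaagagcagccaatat

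Total counts were between 20.0 M and 25.5 M in the 7 libraries, and 16138 genes were tested. Levels are CPM (counts scaled to a common library total), scaled by the trimmed mean of M values (TMM), and differences are on the log2 scale, with negative values for lower levels under DC-101. The libraries differed most in liver tissue: the 34 hepatocyte genes had a mean log2 CPM of 0.10, 3.24, 6.36 and -0.23 in the vehicle libraries and 1.42, 7.99 and 9.51 in the DC-101 libraries. Albumin (Alb) was detected in all of them, from 11 to 2661 CPM under vehicle and from 23.1 to 11810 CPM under DC-101. The hepatocyte level followed the first principal component of the experiment, which held 62.7% of the variance. Endothelial markers such as Cdh5 were detected in every library. In bulk tumour, fewer cells of a type and less RNA per cell cannot be told apart.

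No gene passed an adjusted p of 0.05 between DC-101 and vehicle in edgeR's quasi-likelihood test with Benjamini-Hochberg adjustment. The smallest adjusted p was 0.309. At an unadjusted p under 0.05 there were 2131 genes (13.2%), of which 1084 (6.72%) were higher and 1047 (6.49%) lower under DC-101. DESeq2 on the same counts placed 373 genes past its adjusted threshold, 163 higher (1.01%) and 210 lower (1.3%). The groups did not overlap for 848 higher genes (5.25%) and 1322 lower genes (8.19%). The log2 differences below are therefore values that did not pass the edgeR threshold, given with their unadjusted p, and DESeq2 is named where it made a call.

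Of both receptors for VEGF-A, Flt1 did not overlap with vehicle and Kdr did, and the difference between them was not tested. Flt1 (ENSMUSG00000029648, chr5:147561604-147726011) was at 33.9, 50.1, 28.3 and 56.1 CPM in the vehicle libraries and at 10.9, 12.4 and 19 CPM in the DC-101 libraries. The groups did not overlap, with a log2 difference of -1.58 ± 0.29 (SE, unadjusted p = 0.000345, 95% interval -2.22 to -0.93). Kdr (ENSMUSG00000062960, chr5:75932827-75978458), which encodes the target of the antibody, was at 29.8, 33.4, 32.4 and 41.5 CPM under vehicle and at 15.1, 21.0 and 31.4 CPM under DC-101. DC-101 library 3 lay within the vehicle range, and the log2 difference was -0.61 ± 0.27 (unadjusted p = 0.0519, 95% interval -1.22 to 0.01). The Kdr value moved with single libraries, to -0.35 without DC-101 library 1 and to -0.92 without DC-101 library 3, and was -0.87 with the hepatocyte level as a covariate. The messenger of a target checks neither the dose nor the binding of an antibody.

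The other receptors and the ligands were not separated from vehicle by the same margin. The lymphatic receptor Flt4 had a log2 difference of -0.35 and spread widely under DC-101, from 3.37 to 23.3 CPM. The co-receptors Nrp1 and Nrp2, which tumour cells and stroma also carry, had log2 differences of 0.35 (unadjusted p = 0.0536) and -0.03. Among the 5 ligands none reached an unadjusted p of 0.05. Vegfa was at 203, 279, 152 and 90.8 CPM under vehicle and at 100.9, 112.6 and 270.9 CPM under DC-101, so the groups overlapped fully. The lymphatic ligand Vegfd was at 15 to 18.0 CPM under vehicle and 19.8 to 36.3 CPM under DC-101, with no overlap (log2 difference 0.67, unadjusted p = 0.0641), and Vegfc (log2 0.58), Vegfb (log2 0.28) and Pgf (log2 -0.81) overlapped.

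**Figure D1:**
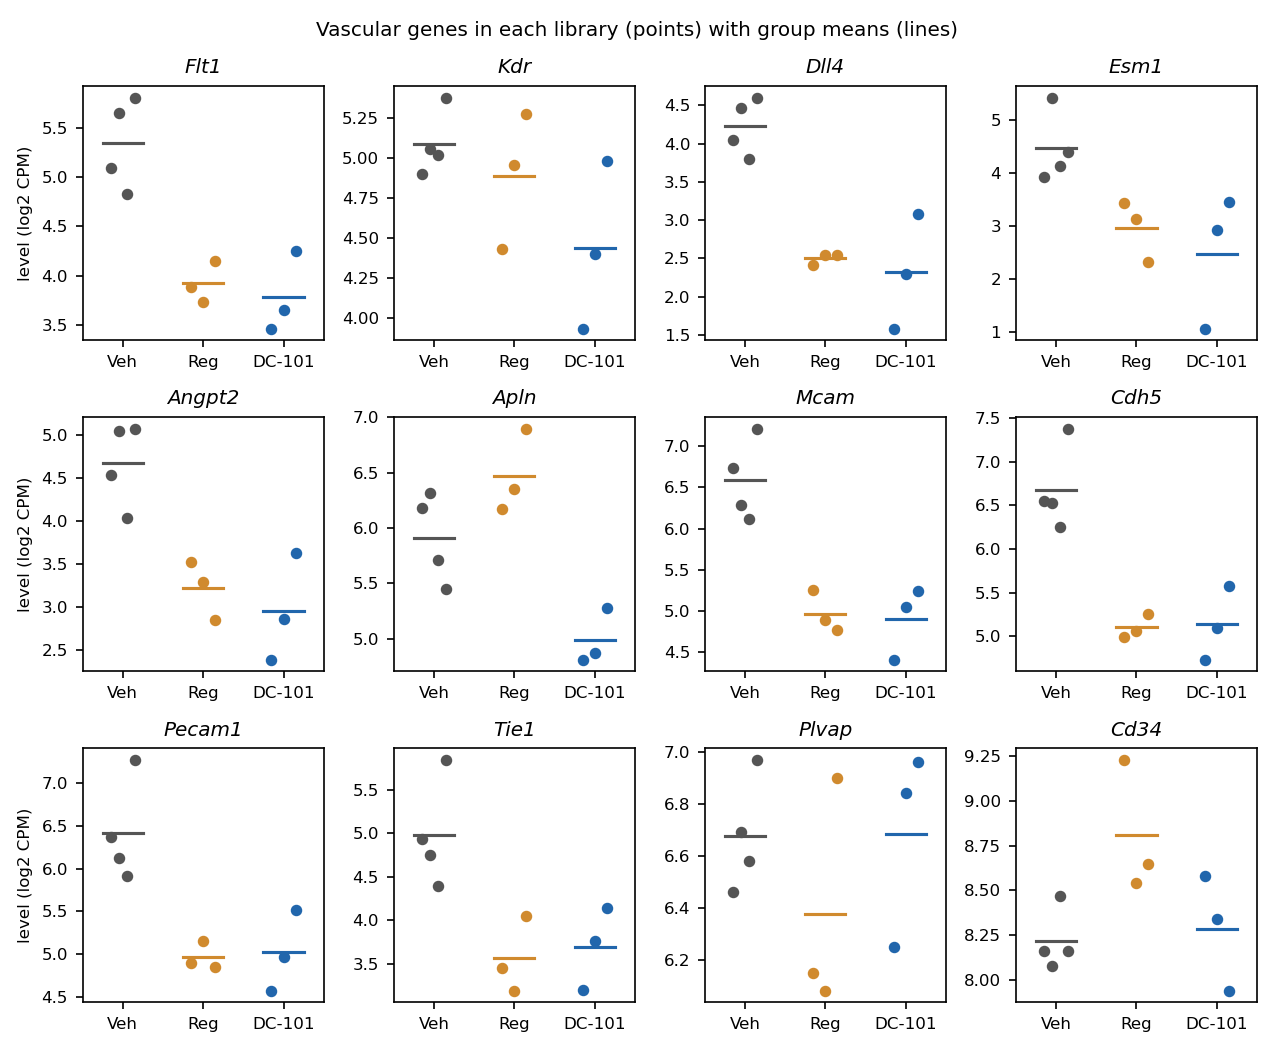
Level of 12 vascular genes in each library (points) of the vehicle (Veh, n = 4), low-dose regorafenib (Reg, n = 3) and DC-101 (n = 3) groups, in log2 CPM on an axis per gene, with the group mean as a line. The DC-101 points lie below every vehicle point for Flt1, Dll4, Esm1, Angpt2, Apln, Mcam, Cdh5, Pecam1 and Tie1, which is not so for Kdr, Plvap and Cd34.

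Among the angiogenesis lists, that of tip cells and sprouting had the most members lower under DC-101. In the main fit all 22 had a negative log2 difference, with a median of -0.87 beside -0.01 over all genes tested. Aplnr turned slightly positive with the hepatocyte covariate and with the replicate block. In this list 12 of 22 (54.5%) were lower at an unadjusted p under 0.05, where 6.49% of all genes were, and 11 did not overlap, where 8.19% of all genes did not. None was higher. Of the 22, 7 passed the adjusted threshold of DESeq2, where it called 1.3% of all genes lower. The count was 8 to 14 over all alternatives, and 11 with the hepatocyte level as a covariate.

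Dll4 (ENSMUSG00000027314, chr2:119325784-119335962), the Notch ligand of the tip cell, was at 16.3, 21.9, 13.8 and 24.1 CPM under vehicle and at 2.89, 4.82 and 8.39 CPM under DC-101. Every DC-101 library was below every vehicle library (log2 difference -1.83 ± 0.35, unadjusted p = 0.000525). Esm1, a proteoglycan secreted by tip cells, was at 15, 43.0, 17.4 and 21.2 CPM under vehicle and at 1.99, 7.47 and 10.9 CPM under DC-101. It had a log2 difference of -1.84 with a wider error (SE 0.60, unadjusted p = 0.0133), and the libraries of both groups differed among themselves.

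Mcam (CD146), an adhesion molecule of endothelial cells and pericytes, was at 106, 77.4, 69.0 and 148 CPM under vehicle and at 21.1, 33.1 and 37.7 CPM under DC-101 (log2 difference -1.71 ± 0.31, unadjusted p = 0.000322). Apln, the ligand of the apelin receptor, was at 72.3, 79.6, 52.3 and 43.5 CPM under vehicle and at 27.9, 29.2 and 38.8 CPM under DC-101 (log2 difference -0.95 ± 0.26, unadjusted p = 0.0045). The groups did not overlap for either gene. Cxcr4, the receptor for the chemokine Cxcl12, was at 47.8 to 61.8 CPM under vehicle and 17.5 to 28.6 CPM under DC-101 (log2 difference -1.26), the potassium channel subunit Kcne3 at 8.22 to 14.2 and 3.05 to 4.89 CPM (log2 -1.53), and the basement membrane protein Nid2 at 34.7 to 82.3 and 16.2 to 32.6 CPM (log2 -1.33), each without overlap. Other members of the list were closer to vehicle: Unc5b had a log2 difference of -0.37, Pdgfb of -0.37 and Aplnr of -0.71, none of them at an unadjusted p under 0.05.

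Angpt2, the Tie2 ligand that endothelial cells release and that loosens vessel walls, was at 23.1, 32.9, 16.3 and 33.4 CPM under vehicle and at 5.10, 7.16 and 12.2 CPM under DC-101. The groups did not overlap (log2 difference -1.70 ± 0.36, unadjusted p = 0.00106). The orphan receptor Tie1 was at 30.7, 26.9, 21.0 and 57.4 CPM under vehicle and at 9.11, 13.4 and 17.5 CPM under DC-101, again without overlap (log2 difference -1.35 ± 0.39, unadjusted p = 0.00681). Both were called by DESeq2. Angpt1, the stabilising ligand made by mural and other cells, and Tek (Tie2) overlapped between the groups, with log2 differences of -0.21 and -0.52.

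In the Notch pathway 3 of 15 tested genes (20.0%) were lower at an unadjusted p under 0.05, where 6.49% of all genes were, and none was higher, with a list median of -0.44. The count was 2 to 5 over all alternatives, and 2 without vehicle library 1 or 4 or DC-101 library 2. Beside Dll4 these were Nrarp, a feedback target of Notch in sprouting vessels (7.88 to 16.0 CPM under vehicle and 3.67 to 5.05 CPM under DC-101, log2 difference -1.30, unadjusted p = 0.000999), and Notch3, the Notch receptor of mural cells (log2 -1.44, unadjusted p = 0.0465, with overlap). Notch4, an endothelial receptor, had a log2 difference of -0.68 (unadjusted p = 0.0578).

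Of 17 genes of the VEGF-induced endothelial response, none was lower and 2 (11.8%) were higher at an unadjusted p under 0.05, where 6.72% of all genes were higher. Their median was 0.28, 12 had a positive and 5 a negative log2 difference, and 1 gene was higher at that level without DC-101 library 3 (1 to 4 over all alternatives). The immediate-early factor Egr1 was at 72.2, 148, 77.2 and 39.3 CPM under vehicle and at 206, 154 and 319 CPM under DC-101 (log2 difference 1.43 ± 0.43, unadjusted p = 0.00853). Egr3 was at 2.28 to 3.53 CPM under vehicle and 5.39 to 9.95 CPM under DC-101 (log2 difference 1.38, unadjusted p = 0.0121). These genes answer many stimuli in many cell types besides VEGF in endothelium, and a further immediate-early gene, Ier2, was among the 10 higher genes with the smallest p (45.1 to 62.3 CPM under vehicle, 84.6 to 103.1 CPM under DC-101, log2 0.79).

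**Figure D2:**
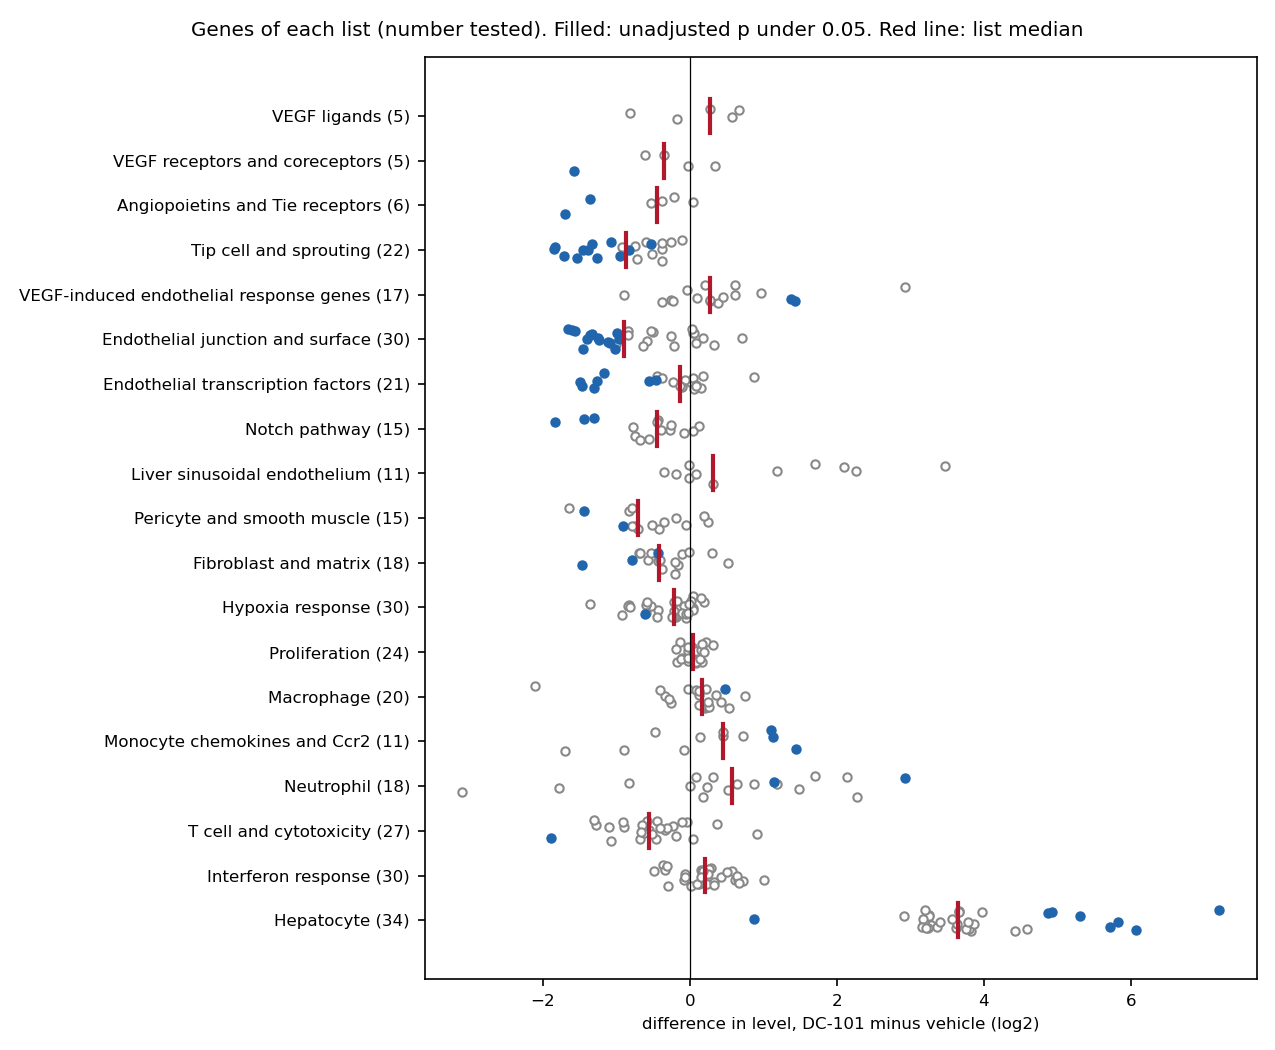
Log2 difference between DC-101 and vehicle (horizontal axis) for each tested gene (points) of 19 lists, with the number tested in brackets, filled points at an unadjusted p under 0.05 and the list median as a red line. The tip cell and the endothelial junction lists lie mostly left of 0 (medians -0.87 and -0.90), the proliferation list lies around 0 (median 0.05), and the hepatocyte list lies far to the right (median 3.65).

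General endothelial genes were lower as well, but not uniformly so. Of 30 genes of endothelial junction and surface, 14 (46.7%) were lower and none was higher at an unadjusted p under 0.05, 15 did not overlap, and the median was -0.90. Over all genes 6.49% were lower and 8.19% lower without overlap. DESeq2 called 8 of them, where it called 1.3% of all genes lower. The count was 11 to 17 over all alternatives, and 12 with the hepatocyte level as a covariate. Cdh5 (ENSMUSG00000031871, chr8:104101625-104144511) was at 93.6, 92.1, 76.1 and 166 CPM under vehicle and at 26.4, 34.3 and 47.8 CPM under DC-101 (log2 difference -1.56 ± 0.29, unadjusted p = 0.000463). Pecam1 (CD31) was at 82.5, 70.1, 60 and 155 CPM under vehicle and at 23.7, 31.3 and 45.9 CPM under DC-101 (log2 difference -1.45, unadjusted p = 0.00248). For both genes the vehicle library with the highest level was the fourth, and the lowest vehicle library stayed above the highest DC-101 library.

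The tight junction gene Cldn5 was at 14.9, 9.10, 6.66 and 24.2 CPM under vehicle and at 4.19, 3.36 and 6.02 CPM under DC-101 (log2 difference -1.60, unadjusted p = 0.00664). The surface sialomucin Emcn (log2 -1.40), the adhesion molecule Esam (log2 -1.25), the matrix protein Mmrn2 (log2 -1.24) and the small membrane protein Myct1 (log2 -1.09) were also lower in every DC-101 library than in every vehicle library.

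Some genes of the list overlapped between the groups. Plvap, a component of the diaphragms of fenestrated endothelium, was at 87.7, 103.5, 95.7 and 125 CPM under vehicle and at 76.1, 115 and 124 CPM under DC-101. Its log2 difference was 0.03 with a 95% interval of -0.52 to 0.57, which does not reach the difference of Cdh5. Cd34, which is also on stromal and progenitor cells, had a log2 difference of 0.08 (95% interval -0.38 to 0.54). The clotting factor gene Vwf spread from 0.95 to 25.5 CPM under DC-101 and was at 4.43 to 9.12 CPM under vehicle (log2 difference 0.71, 95% interval -1.31 to 2.72). Plvap, Cd34 and Vwf each reversed direction under some alternatives, Plvap and Vwf also with the hepatocyte covariate, as listed in the last section.

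Ratios of counts within each library were looked at after the values were known and carry no test, and whether both genes of a ratio come from the same cells was not tested. There were 93.7, 112.4, 125.7 and 75.4 Plvap counts per 100 Cdh5 counts in the vehicle libraries and 288.5, 334.5 and 259.6 in the DC-101 libraries, beside 223.5, 202.5 and 312.2 in the regorafenib libraries. There were 31.9, 36.2, 42.5 and 25 Kdr counts per 100 Cdh5 counts under vehicle and 57.3, 61.3 and 65.8 under DC-101, beside 67.5, 92.9 and 101.5 under regorafenib. For Dll4 the ratio was 17.4, 23.8, 18.1 and 14.5 per 100 Cdh5 counts under vehicle and 11, 14.1 and 17.5 under DC-101, which overlap, and 16.5, 17.2 and 15.1 under regorafenib. The ratios of Plvap and Kdr to Cdh5 were above every vehicle library in each DC-101 and each regorafenib library, and the ratios do not correct for gene length.

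Liver sinusoidal endothelium, the fenestrated endothelium of normal liver, also carries some of these messengers. None of its 11 tested markers reached an unadjusted p of 0.05 and the median was 0.32. Over all alternatives the median ran from -0.66 to 0.81, with 0 to 3 markers lower and 0 to 4 higher at that level. Its mean level ranged from 2.54 to 4.24 log2 CPM under vehicle and from 1.89 to 5.00 log2 CPM under DC-101, and its part in the levels of Plvap, Kdr and Vwf was not tested.

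Among 21 endothelial transcription factors, 7 (33.3%) were lower at an unadjusted p under 0.05, where 6.49% of all genes were, and none was higher, with a median of -0.13. Of all 21, 13 had a negative and 8 a positive log2 difference. The 7 included factors that define endothelial identity. Erg, the ETS factor of endothelium, was at 9.03, 8.86, 6.08 and 17.2 CPM under vehicle and at 1.77, 4.02 and 5.16 CPM under DC-101 (log2 difference -1.49, unadjusted p = 0.0067). Sox17 (log2 -1.46), Sox18 (log2 -1.30) and Bcl6b (log2 -1.17) did not overlap either, and DESeq2 called 4 of the 21, where it called 1.3% of all genes lower. With the hepatocyte level as a covariate 4 of the 21 were lower at an unadjusted p under 0.05, and over all alternatives 4 to 8 were. Klf4, a factor that macrophages and other cells also express, was at 22.0 to 39.7 CPM under vehicle and 25.1 to 30.1 CPM under DC-101 (log2 -0.07). Of 12 arterial and venous genes 2 (16.7%) were lower, beside 6.49% of all genes, Sox17 and the semaphorin Sema3g (log2 -1.27, unadjusted p = 0.00208).

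**Figure D3:**
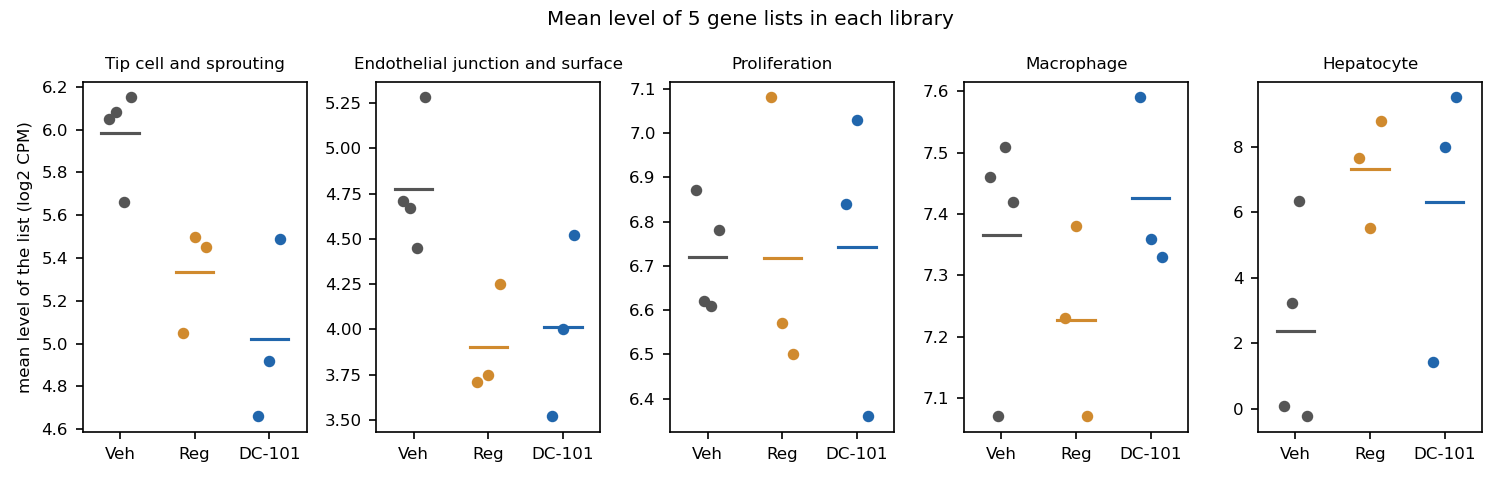
Mean level of 5 gene lists (log2 CPM, an axis per list) in each library (points) of the vehicle, low-dose regorafenib and DC-101 groups, with group means as lines. Of the 5 lists drawn, the tip cell list has all DC-101 points below all vehicle points (4.66 to 5.49 against 5.66 to 6.15), as have the Notch (3.40 to 4.01 against 4.12 to 4.5) and endothelial transcription factor (3.96 to 4.25 against 4.31 to 4.67) lists, which are not drawn. The hepatocyte list spans several log2 units within both groups.

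The hepatocyte level overlapped between the groups. Of its 34 genes, 8 (23.5%) were higher at an unadjusted p under 0.05, where 6.72% of all genes were, and none was lower, with a median of 3.65. The count was 30 without vehicle library 3, 18 without DC-101 library 1, and 4 without vehicle library 1, 2 or 4 or DC-101 library 3, and it was 1 to 30 over all alternatives. Examples were Tat, a liver enzyme of tyrosine breakdown (log2 7.20), and Ass1, a urea cycle enzyme that was the single member without overlap (log2 0.87). Ass1 did not follow the rest of the list closely. It held 1434 and 1055 counts in vehicle libraries 1 and 4, where the list member Cps1 held 3 and 6. Which cells Ass1 came from was not tested. With the hepatocyte level as a covariate, 966 genes were at an unadjusted p under 0.05 in place of 2131, and none passed the adjusted threshold. The part of liver tissue in the vascular differences was otherwise not tested.

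Mural cells wrap the vessels, and fibroblasts make the matrix around them. Of 15 pericyte and smooth muscle genes 2 (13.3%) were lower at an unadjusted p under 0.05, where 6.49% of all genes were, with a median of -0.70, and 1 was lower without vehicle library 1 or 4 or DC-101 library 1. That median ran from -1.64 to -0.24 over all alternatives. Acta2, smooth muscle actin, was at 404, 387, 286 and 346 CPM under vehicle and at 147, 198 and 221 CPM under DC-101 (log2 difference -0.91 ± 0.20, unadjusted p = 0.00111). Pdgfrb and Rgs5, markers of pericytes, overlapped between the groups (log2 -0.35 and -0.79). Of 18 fibroblast and matrix genes 3 (16.7%) were lower beside the same 6.49%, the surface antigen Thy1 (log2 -1.47), the matrix protein Sparc (log2 -0.43) and the matrix protease Mmp2 (log2 -0.78), with a median of -0.42, and 1 was lower without vehicle library 2 or DC-101 library 2. The adipocyte and endothelial fatty acid carrier Fabp4, in the list of 6 mesothelial and adipocyte genes, was lower (log2 -1.31, unadjusted p = 0.0213), at 36.0 to 77.0 CPM under vehicle and 7.13 to 32.7 CPM under DC-101.

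No hypoxia gene was higher under DC-101 at an unadjusted p under 0.05. Of 30 tested, 1 (3.3%) was lower at that level, where 6.49% of all genes were, with a median of -0.22. The histone demethylase Kdm3a was at 124, 144, 122 and 120 CPM under vehicle and at 89.2, 75.6 and 84.7 CPM under DC-101 (log2 difference -0.61 ± 0.13, unadjusted p = 0.00131). The glucose transporter Slc2a1 and the carbonic anhydrase Car9 overlapped between the groups, with log2 differences of -0.44 (95% interval -1.67 to 0.79) and -0.43 (95% interval -1.77 to 0.91). The third DC-101 library held the highest Car9, Slc2a1 and Vegfa of its group, and without it 10 of the 30 hypoxia genes were lower at an unadjusted p under 0.05. In that fit 1398 genes were at that level in either direction, and the share of all genes that was lower was not counted. Of 24 proliferation genes none reached an unadjusted p of 0.05 and the median was 0.05. Mki67 was at 333 to 431 CPM under vehicle and 275 to 405 CPM under DC-101 (log2 -0.13, 95% interval -0.46 to 0.21).

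The macrophage, M1, M2 and T cell lists held no larger a share of genes at an unadjusted p under 0.05 in either direction than all genes did (6.72% higher and 6.49% lower), and the single genes named here are no result about their lists. Their counts of 1 or 2 went to between 0 and 3 when a library was left out. In the macrophage list 1 of 20 genes (5.0%), the scavenger receptor Msr1 (log2 0.48, unadjusted p = 0.0301, with overlap), was higher and none was lower. Csf1r and Adgre1 (F4/80), which mark macrophages, had log2 differences of 0.12 (95% interval -0.44 to 0.68) and 0.21 (95% interval -0.32 to 0.75). Of 17 M1 markers 1 (5.9%) was higher, Il23a, at 0.18 to 0.395 CPM under vehicle and 0.619 to 1.47 CPM under DC-101, a low level. Of 16 M2 markers Folr2 was higher (log2 0.96) and Ccl17 lower (log2 -0.84), both with overlap, or 6.2% in each direction. Nos2 (log2 -1.12), Tnf (log2 0.41), Il6 (log2 -0.36) and Mrc1 (log2 0.09) overlapped, and the intervals of Nos2 and Il6 were each more than 3 log2 units wide.

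Of the monocyte chemokines and their receptors, 3 of 11 (27.3%) were higher at an unadjusted p under 0.05, where 6.72% of all genes were, and 1 was without DC-101 library 1. Ccl2, the main ligand of Ccr2, was at 25.4, 30.0, 26.4 and 8.63 CPM under vehicle and at 92.3, 34.7 and 57.6 CPM under DC-101 (log2 difference 1.45 ± 0.43, unadjusted p = 0.00834, DESeq2 adjusted p = 0.0308). Ccl7 was at 9.21, 10.1, 9.33 and 2.97 CPM under vehicle and at 25.2, 11.6 and 15.3 CPM under DC-101 (log2 difference 1.13, unadjusted p = 0.0237). Neither overlapped, though the second DC-101 library was close to the vehicle libraries and the fourth vehicle library was well below the rest. Ccl12 overlapped (log2 1.11, unadjusted p = 0.034). Ccl8 went the other way (log2 -1.69, unadjusted p = 0.0522), and Ccr2 itself was at 53.6 to 128 CPM under vehicle and 78.6 to 244 CPM under DC-101 (log2 0.72, unadjusted p = 0.132).

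In the TNF and NF-kB list 2 of 19 (10.5%) were higher, where 6.72% of all genes were, Ccl2 and the inhibitor Nfkbia, which was at 141, 146, 124 and 105 CPM under vehicle and at 207, 184 and 233 CPM under DC-101 (log2 difference 0.69 ± 0.14, unadjusted p = 0.000577). In the neutrophil list 2 of 18 (11.1%) were higher beside the same 6.72%, the receptor Trem1 (6.02 to 11.5 CPM under vehicle, 15.8 to 20.7 CPM under DC-101, log2 1.14) and the granule enzyme Mpo, which stayed under 4 CPM. The neutrophil count was 1 to 5 over all alternatives and 5 without DC-101 library 1, and the list median ran from -0.18 to 1.24.

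Lymphocyte genes were sparse in these tumours. Of 27 T cell and cytotoxicity genes 1 (3.7%) was lower, where 6.49% of all genes were, the factor Eomes (log2 -1.89, unadjusted p = 0.0273), at 0.47 to 1.85 CPM under vehicle and 0.133 to 0.484 CPM under DC-101. The list median was -0.56 and ran from -1.15 to 0.2 over all alternatives. Cd8a was at 0.439, 3.37, 11.4 and 2.20 CPM under vehicle and at 3.54, 1.15 and 4.78 CPM under DC-101, so that a difference in either direction of up to 1.95 log2 units lay within its 95% interval. Cd274 (PD-L1) was at 15.7, 8.43, 18.2 and 12.6 CPM under vehicle and at 2.51, 2.03 and 9.41 CPM under DC-101, with overlap in the third DC-101 library (log2 difference -1.57, unadjusted p = 0.0665). No gene of the interferon response (30 tested, median 0.20), antigen presentation (18, median -0.01), immune checkpoint (12, median -0.07) or B cell and plasma cell (15, median -0.24) lists reached an unadjusted p of 0.05, although 6 interferon genes were higher without vehicle library 3 and 3 B cell genes were lower without DC-101 library 3. In those fits 2261 and 1398 genes were at that level in either direction, and the shares of all genes in each direction were not counted. Of 13 dendritic cell genes 1 (7.7%) was lower, Fscn1 (log2 -0.27). Of 8 Kupffer cell genes Marco and Folr2 were higher (25%, beside 6.72% of all genes) and Cdh5, an endothelial gene kept in that list, was lower. Marco and Folr2 both overlapped between the groups. Marco held 5, 2, 3 and 10 counts under vehicle and 5, 369 and 34 counts under DC-101. The number of higher Kupffer cell genes was 0 to 6 over all alternatives and 5 without vehicle library 3 or DC-101 library 1. The mean level of the list was 1.31, 0.30, 2.71 and 0.98 log2 CPM under vehicle and 0.39, 4.45 and 4.49 log2 CPM under DC-101, highest in the libraries with the highest hepatocyte level of each group, whose part in it was not tested. Erythrocyte (9 tested, median -1.23), platelet (5, median -0.69) and cholangiocyte (13, median 0.37) genes did not reach an unadjusted p of 0.05.

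Beyond the lists, the 10 genes in each direction with the smallest p, a mean of at least 0 log2 CPM and no overlap were taken by rule. The lower set was led by Igfbp3, a secreted binder of insulin-like growth factors, at 356, 304, 203 and 436 CPM under vehicle and at 45.3, 73.4 and 81.3 CPM under DC-101. Its log2 difference of -2.28 ± 0.32 had the smallest unadjusted p of all genes (4.9e-05). The others were Flt1, Mcam, Khdc4 (log2 -0.53), Fam117a (log2 -1.07), Erf (an ETS repressor, log2 -0.44), 1810013L24Rik (log2 -0.57), Clca2 (log2 -3.17, under 1 CPM in each DC-101 library), Phf12 (log2 -0.52) and Pik3c2b (log2 -1.36). The higher set held the mitochondrial enzyme gene Dglucy (log2 0.72), Rnf141 (log2 0.61), the myeloid adaptor Dok2 (log2 1.36), Echdc1 (log2 0.68), Opa3 (log2 0.46), C330018D20Rik (log2 0.69), Nfkbia, Ier2, and Dnajc3 (log2 0.66) and Selenos (log2 0.79), which act in the endoplasmic reticulum on protein folding.

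Low-dose regorafenib was compared directly with DC-101 to ask where the antibody stood apart. No gene passed the adjusted threshold in edgeR (smallest adjusted p 0.389), 1364 (8.45%) were at an unadjusted p under 0.05, and DESeq2 called 203. The differences of both treatments from vehicle share the 4 vehicle libraries and are given side by side only. Flt1 was at 14.7, 13.2 and 17.7 CPM under regorafenib, a log2 difference from vehicle of -1.47 beside -1.58 for DC-101, and the direct log2 difference of DC-101 from regorafenib was -0.11 (95% interval -0.77 to 0.55). Cdh5 was at 31.7, 33.3 and 38.2 CPM under regorafenib, with a direct log2 difference of 0.07 (95% interval -0.61 to 0.75), and Dll4 at 5.21, 5.73 and 5.77 CPM, with a direct log2 difference of -0.06 (95% interval -0.86 to 0.75). For Igfbp3, 1 of 4 genes that passed between regorafenib and vehicle (adjusted p = 0.0433), the log2 differences from vehicle were -2.84 under regorafenib and -2.28 under DC-101.

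Apln had the smallest unadjusted p between the treatments among the 49 genes of the panel. It was at 72.1, 81.5 and 119 CPM under regorafenib and at 27.9, 29.2 and 38.8 CPM under DC-101, with a direct log2 difference of -1.51 (unadjusted p = 0.000332, adjusted p = 0.389, 95% interval -2.12 to -0.89). Every regorafenib library was above every DC-101 library. Cldn5 was lower under regorafenib, at 1.42, 1.5 and 2.51 CPM, than under DC-101 (direct log2 difference 1.32, unadjusted p = 0.023). Nrp2 (log2 -0.80) and Cd34 (log2 -0.53) were lower under DC-101 than under regorafenib at an unadjusted p of 0.0147 and 0.0381.

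Of the inflammatory panel genes, Ccl2 was at 125, 179 and 150 CPM under regorafenib, above all DC-101 libraries (direct log2 difference -1.30, unadjusted p = 0.0212). Ccl7 was at 43.9, 74.4 and 61.4 CPM under regorafenib (direct log2 difference -1.79, unadjusted p = 0.00362). Tnf was at 7.73, 12.5 and 7.19 CPM under regorafenib and at 4.49, 1.86 and 3.92 CPM under DC-101 (direct log2 difference -1.42, unadjusted p = 0.0146). Cd274 had a direct log2 difference of -2.29 (unadjusted p = 0.0187), with overlap. It held 152, 1041 and 243 counts under regorafenib and 58, 46 and 175 counts under DC-101. Ccl2, Ccl7, Tnf and Cd274 made up, with the 4 vascular genes above, the 8 of 49 panel genes at an unadjusted p under 0.05 in the direct comparison, and none passed the adjustment. In the direct comparison 5 of 11 monocyte chemokine and receptor genes and 4 of 17 M1 markers were at an unadjusted p under 0.05, where 8.45% of all genes were. In the TNF and NF-kB list 2 of 19 and in the neutrophil list 1 of 18 genes were. In the interferon list 8 of 30 were, all of them lower under DC-101, and the list medians from the shared vehicle were 1.25 for regorafenib and 0.20 for DC-101.

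**Figure D4:**
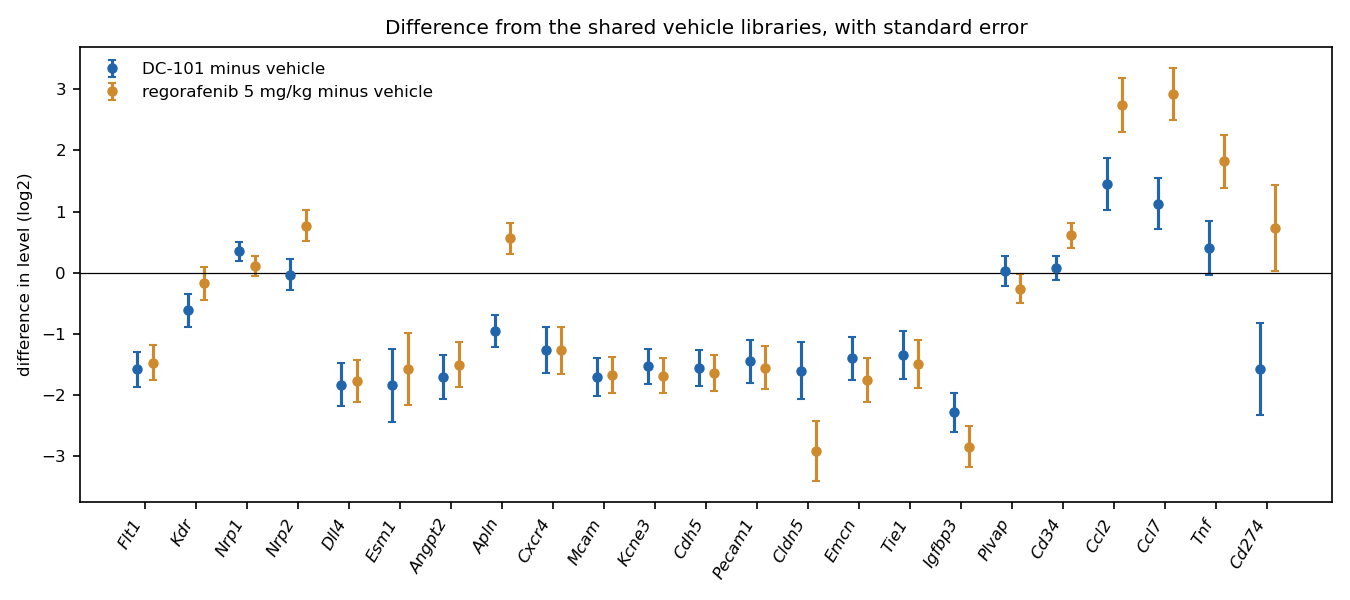
Log2 difference from the shared 4 vehicle libraries (vertical axis) for DC-101 and for low-dose regorafenib, each point with its standard error, for 23 genes. Both treatments lie near -1.5 for Flt1, Cdh5 and Mcam, while Apln is at -0.95 under DC-101 and 0.56 under regorafenib, and Ccl2, Ccl7 and Tnf are higher under regorafenib than under DC-101.

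The vehicle libraries of the other experiments of the series give a wider background, although each experiment is a batch of its own and DC-101 was given in 1 of them only. Scaled together over all 32 libraries, the DC-101 libraries lay below all 11 vehicle libraries for 119 of 17996 genes (0.661%) and above all of them for 86 (0.478%). Among the 30 junction and surface genes 7 lay below all 11, and among the 22 tip cell genes 2 did. Flt1 was at 10.5 to 17.9 CPM under DC-101 on that scale and at 19.1, 32.2 and 53.8 CPM as the lowest, median and highest vehicle library. Cdh5 was at 25.4 to 45.0 CPM under DC-101 and at 50.6, 88.8 and 159 CPM in the same order. Mcam, Kcne3, Cldn5, Emcn, Esam, Tie1, Sox17 and Erg lay below as well. Kdr and Plvap overlapped with the 11, as did Dll4, Esm1, Angpt2, Apln, Cxcr4, Nid2, Nrarp, Pecam1, Mmrn2, Sox18, Bcl6b and Ccl2, which did not overlap with the 4 vehicle libraries of their own experiment. Pecam1 reached 43.1 CPM under DC-101 where the lowest vehicle library was at 34.6 CPM, and Apln reached 36.5 CPM where it was at 20.0 CPM. No hepatocyte, proliferation or macrophage gene lay below or above all 11 vehicle libraries in all 3 DC-101 libraries, nor did any hypoxia, T cell or interferon gene. With 0.661% of all genes below and 0.478% above, a count of 0 is no result about these lists.

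**Figure D5:**
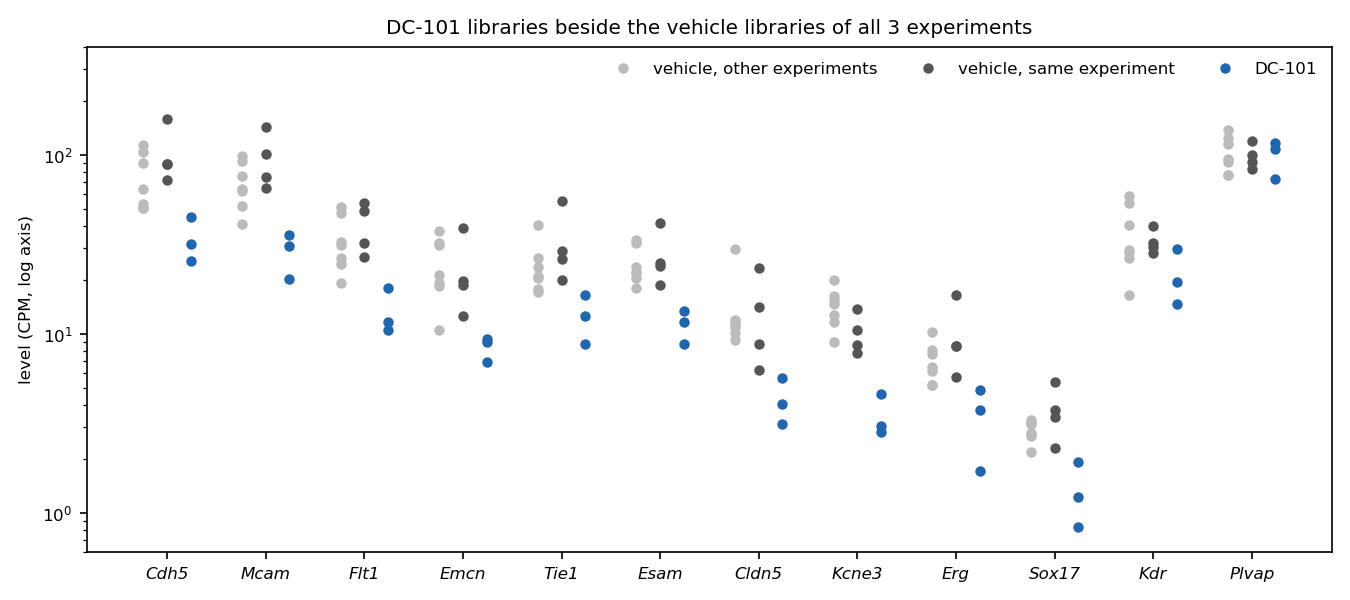
Level of 12 endothelial genes (CPM on a log axis) in the vehicle libraries of the other experiments (light grey, n = 7), the vehicle libraries of the same experiment (dark grey, n = 4) and the DC-101 libraries (blue, n = 3). The blue points lie below every grey point for the first 10 genes, and overlap with grey points for Kdr and Plvap.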

How the data were processed

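The samples were 10 tumours of 1 experiment, grouped by their labels as DC-101 (n = 3), vehicle (n = 4) and low-dose regorafenib (n = 3). Stranded, paired-end mRNA libraries were made from tumour RNA, from frozen tissue per the labels, whereas the study's methods speak of fresh tumour. The authors trimmed adapters with cutadapt 2.4, aligned reads to GRCm38 and counted them per Gencode gene with STAR 2.7.2a, and deposited raw counts. Which strand column was taken is not given in the sources used here, so overlapping genes on opposite strands are uncertain.

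A single edgeR model (edgeR 4.0.16, R 4.3.3) held all 10 libraries (filterByExpr with a minimum count of 10 and a minimum total of 15, TMM, robust quasi-likelihood F-test, 2-sided, Benjamini-Hochberg, threshold 0.05). Intervals are 95% and use the test's degrees of freedom. Levels on the log2 scale had a prior count of 2. Counts were simulated gene by gene with the spread estimated from the data. Of these, 200 better expressed genes were changed by 2 log2 units between DC-101 and vehicle. The code recovered 72.5% of them and made 4 false calls. The simulated libraries shared no difference in liver tissue, so this checks the code and does not give the power of the real comparison. DESeq2 1.42.0, limma 3.58.1 (voom), other scalings and filters, a hepatocyte covariate, a replicate block and leaving out each library were the alternatives.

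The groups and the 32 gene lists (554 of 557 entries matched) were chosen with earlier results of these data known. Named genes are a panel of 49, the 10 genes in each direction with the smallest p among those with a mean of at least 0 log2 CPM and no overlap (no gene passed the threshold), and up to 4 members of each list in each direction with the smallest p. A panel gene is not reported here. Libraries of a group differed by a chi-square per degree of freedom of 40.3 to 214.7, so none was a duplicate. Promoters are from RefSeq (GRCm38.p6).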

Additional observations from a re-analysis of the deposited data

Results flagged for a closer look

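The levels of the panel genes, of the genes with the smallest p and of the lists were checked in the 4 vehicle libraries for a library far from the others, and 3 of 100 passed the limit of that check. The limit is set so that chance passes about 1 in 20 independent groups, these share genes and libraries, and the values are descriptions. Ccl2 was at 3.12 log2 CPM and Ccl7 at 1.61 log2 CPM in the fourth vehicle library, each far below the other vehicle libraries. Without that library the log2 difference between DC-101 and vehicle was 1.18 for Ccl2 and 0.86 for Ccl7. The mean level of the liver sinusoidal endothelium list was 4.24 log2 CPM in the third vehicle library, above the others, and that library also had the highest hepatocyte level of the vehicle group (6.36). The part of liver tissue in that level was not tested.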

How the results depend on the processing

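The count of 0 genes past the adjusted threshold held for both comparisons under every alternative except DESeq2. It called 373 genes between DC-101 and vehicle and 203 between DC-101 and regorafenib. Of the 117 named genes it called 52, where it called 1.01% of all genes higher and 1.3% lower. Many named genes were chosen for a small p in the same counts, so their share of calls is no support. No other alternative called any of the named genes. At an unadjusted p under 0.05 the 2131 genes of DC-101 against vehicle became 966 with the hepatocyte covariate, 1374 with the replicate block and 1398 to 2558 when 1 library was left out (1410 without vehicle library 4, 1398 without DC-101 library 3), while the 1364 genes of DC-101 against regorafenib became 885 to 2251 (2251 without regorafenib library 1, 885 without regorafenib library 2). The causes were not tested. Only vehicle library 4 carries replicate number 4, so the replicate block also takes that library out of the comparison. The labels do not say what the replicate numbers mark, and whether same-numbered libraries share a day or batch is not known: same-number DC-101 and vehicle libraries correlated at 0.42, -0.08 and 0.67 in their deviations from the group means, and 1 of 3 DC-101 libraries correlated best with its own number. Leaving out 1 library left 8 to 14 lower tip cell genes and 11 to 17 lower junction genes. Shares of all genes in each direction were counted for the main fit and DESeq2 only, so list counts under other alternatives have no such share beside them. Of the named genes 98 kept their direction under every alternative. The others, none past a threshold, reversed as follows. The log2 difference became 0.09 for Nrp2, 0.05 for Aplnr, -0.23 for Plvap, -1.25 for Vwf, -0.27 for Pdcd1 and 0.02 for Mki67 with the hepatocyte covariate. It became -0.35 for Vwf, 0.11 for Cd8a and 0.03 for Cxcl9 with limma voom, 0.01 for Cd4 without the filter, 0.01 for Cd4 with only the groups compared, 0.06 for Aplnr, 0.04 for Cd8a and 0.20 for Gzmb with the replicate block, and -0.01 for Plvap by total counts. With 1 library left out the ranges were -1.09 to 0.15 for Flt4, -0.28 to 0.14 for Nrp2, -0.76 to 0.13 for Vegfa, -0.40 to 0.02 for Angpt1, -0.11 to 0.24 for Plvap, -0.92 to 1.29 for Vwf, -0.05 to 0.24 for Cd34, -0.87 to 0.65 for Cd8a, -1.21 to 0.49 for Cd4, -1.31 to 0.27 for Gzmb, -0.51 to 0.86 for Pdcd1, -0.03 to 0.37 for Adgre1, -0.16 to 0.29 for Csf1r, -0.11 to 0.36 for Mrc1, -4.64 to 0.45 for Il6, -0.89 to 0.35 for Cxcl9, -0.18 to 0.12 for Klf4, -0.20 to 0.03 for Mki67. Several lymphocyte genes were under 1 CPM, and the spread between libraries was wide (10 to 234 Cd8a counts under vehicle).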
